A study of Homo sapiens with 2 samples.

Results

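The olfactory receptor genes described here are those with a current symbol of OR, a number, 1 or 2 letters and a number, and with a deposited log ratio at 3 h or 6 h. They number 161, of 11057 named genes with a value on either array. A receptor gene's value is the mean of its probes, and each of these genes had 1 probe. The arrays compared 293T cells given 10 µM Y27632 for 3 h with untreated 293T cells, and 293T cells given 10 µM Y27632 for 6 h with untreated 293T cells, with 1 two-channel array per time. Y27632 inhibits the kinases ROCK1 and ROCK2, which drive actomyosin contraction, and 293T is an established human embryonic kidney line. The titles of the arrays read control with the time, but the sources of their treated channels name Y27632, and the sources were followed. Treated RNA carried Cy3 and untreated RNA Cy5 on both arrays, the untreated cells were labelled as 0 h, and no dye was swapped. The sources used here name no vehicle for the untreated cells, so these ratios cannot separate Y27632 from a vehicle or from time in culture. Dye went with treatment on both arrays, so the ratios cannot separate Y27632 from dye either. A dye difference shared by both arrays was not tested. The presence of a value chose the members, and the family was singled out with its medians already known, so its values are given as a description.

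Olfactory receptors are G-protein-coupled receptors that bind odorants in the cilia of olfactory sensory neurons. Each such neuron expresses a single receptor allele out of the whole family, while the other receptor genes stay in silent chromatin. Receptor binding activates the G protein subunit encoded by GNAL and the adenylyl cyclase encoded by ADCY3, and cyclic AMP then opens a cation channel that contains CNGA2 and CNGB1. Class I receptors form families 51 to 56 and resemble fish receptors. Class II receptors form families 1 to 14 in the human genome. Transcripts of the family are expected to be rare in a kidney line. A ratio holds no level and no spot intensities were used here, so whether any receptor was transcribed in these cells was not measured, and neither the kidney nor the 293T identity could be checked by markers.

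The sources used here do not give the numerator of the deposited ratio. If treated signal was divided by untreated signal, a positive log ratio means more in treated cells, and otherwise less, so signs are given as deposited. Values were read as log2, because 1 SD of all probes at 3 h is then a 1.30-fold difference and would be 2.39-fold in base 10. Natural logarithms could not be told from log2. There was no replicate array, so no value has an error between samples, no test was made and no p-value is given. Different probes of a gene differed with an SD of 0.31 (3 h) and 0.33 (6 h), taken over 572 other genes. Those genes had several probes with values on both arrays, and each receptor had 1 probe. That SD is therefore a rough scale only, and a receptor's own error could not be had. The labels do not say whether the arrays shared untreated RNA, so the times are given side by side, together with the difference of their ratios, and no correlation between them is given.

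What the receptor genes shared beyond their name was an A and T rich gene start with few CG pairs. RefSeq windows of 300 bases, from 250 before to 50 after the gene start in GRCh38.p14, matched 131 of the 161 members. Their median content of G and C was 38.7%, against 63% over the windows of 15711 other protein-coding genes. The median window held 1 CG pair in receptors and 22 in the other genes, and 31 receptor windows (23.7%) held none, against 1.73% of the others. The letters TATAAA occurred on either strand in 39 receptor windows (29.8%), against 9.46% of other protein-coding windows and 12.0% of all 27305 windows. The letters TAATTA, a core recognised by homeodomain proteins, occurred in 34 (26.0%), against 3.15% of other protein-coding windows. These searches covered both strands, matches of different motifs may overlap, and both motifs are made of A and T only, as the receptor windows largely are. In 56 receptor windows the gene start was itself an ATG, so for these the RefSeq start may be the start of the coding part. The windows of the members that were highest and lowest at 3 h (OR10J5 and OR4X2) and at 6 h (OR4A16 and OR2J3) are shown with their CG pairs in capitals, to make the scarcity of CG visible. OR56A3 tied with OR2J3 as lowest at 6 h and also has a window, which is not shown. They lie at chr1:159535958-159536257 (minus strand), chr11:48244854-48245153, chr11:55342951-55343250 and chr6:29107808-29108107 (plus strand).
OR10J5: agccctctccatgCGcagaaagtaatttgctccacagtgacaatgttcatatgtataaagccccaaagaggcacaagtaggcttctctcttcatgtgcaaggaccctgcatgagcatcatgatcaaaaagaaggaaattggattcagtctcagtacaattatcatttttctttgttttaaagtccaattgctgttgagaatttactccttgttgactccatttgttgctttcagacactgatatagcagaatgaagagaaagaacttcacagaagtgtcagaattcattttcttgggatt
OR4X2: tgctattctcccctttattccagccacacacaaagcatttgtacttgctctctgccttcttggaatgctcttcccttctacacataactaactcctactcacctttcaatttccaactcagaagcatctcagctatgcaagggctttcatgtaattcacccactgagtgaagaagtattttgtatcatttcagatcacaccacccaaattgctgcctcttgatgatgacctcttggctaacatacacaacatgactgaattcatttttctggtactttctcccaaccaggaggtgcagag
OR4A16: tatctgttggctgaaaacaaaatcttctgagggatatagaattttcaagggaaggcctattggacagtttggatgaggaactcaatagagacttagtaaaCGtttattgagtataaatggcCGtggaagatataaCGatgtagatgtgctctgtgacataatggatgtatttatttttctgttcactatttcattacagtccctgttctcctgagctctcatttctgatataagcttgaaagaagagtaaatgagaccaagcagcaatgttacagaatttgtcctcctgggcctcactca
OR2J3: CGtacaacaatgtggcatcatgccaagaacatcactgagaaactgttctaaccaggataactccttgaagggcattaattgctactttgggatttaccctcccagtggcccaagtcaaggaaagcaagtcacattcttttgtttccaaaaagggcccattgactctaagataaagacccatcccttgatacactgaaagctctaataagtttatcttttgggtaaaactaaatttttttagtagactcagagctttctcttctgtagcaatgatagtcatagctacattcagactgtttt
OR4X2 had no CG pair in 300 bases, and the windows of the highest and the lowest members alike were rich in A and T.

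**Figure D1:**
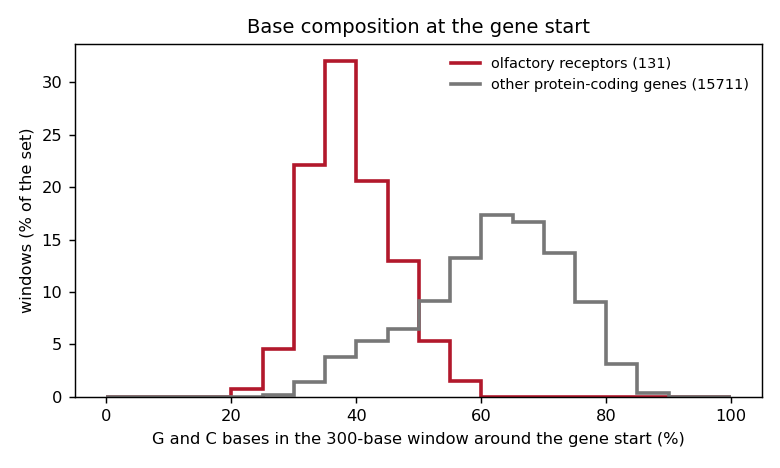
Base composition at the gene start: content of G and C (x axis, percent, in steps of 5) in RefSeq windows of 300 bases, as a share of windows (y axis, percent), for 131 olfactory receptors and 15711 other protein-coding genes. The receptor windows centre near 38.7% and the other windows near 63%.

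Split by base composition, receptors had close medians at 3 h, and at 6 h the part richer in G and C had the lower one. The 64 receptors above the members' median content of G and C centred on −0.16 at 3 h, against −0.15 for the 67 at or below it. At 6 h the medians of these parts were −0.32 and −0.22. Class I windows held 44.5% G and C in the median, against 37.7% in class II, and the classes differed in log ratio as given further on. Receptors with TATAAA had −0.09 at 3 h and −0.3 at 6 h, and those without had −0.17 and −0.23. Among 8515 pairs of receptor windows the median share of equal bases after alignment was 44%. The windows of OR7A5 and OR7C1 were the same stretch, because RefSeq gives both genes 1 shared start. OR7A5 had −0.06 at 3 h and no value at 6 h, and OR7C1, which responds to a steroid odorant, had 0.18 and −0.08. OR2M3 and OR2T12 also shared 83.7% of their windows.

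Receptor probes often had no value. The platform annotation named 270 receptor genes, each by 1 probe, and 109 of them (40.4%) had no value on either array, against 11.3% of 13125 other named probes. No value was given for 118 receptor probes at 3 h (43.7%) and 140 at 6 h (51.9%), against 1760 and 1841 of the other named probes. The filter that emptied spots is not given in the sources used here. Taste, trace amine and vomeronasal receptors, also sensory genes, lacked a value on both arrays for 12 of 26 probes (46.2%), and beta defensins, antimicrobial peptides of epithelia, for 6 of 14 (42.9%). Keratin-associated proteins of hair lacked it for 5 of 24 (20.8%) and GPR receptors for 10 of 57 (17.5%). In contrast, all 42 probes of cytosolic ribosomal proteins and all 30 of respiratory complex I subunits had both values, and 33 of 35 proteasome probes did. Receptors lacked values more often than other genes within each series of probe names: 36.8% against 11.5% for names starting H300, which hold 223 receptor probes, 35% against 10.4% for H200 and 74.1% against 13.8% for opHs.

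The 109 receptor genes without a value included 11 of 24 with a probe that were listed for a known ligand or a place outside the nose. That share was near the 40.4% of all receptor probes. OR51E1 and OR51E2, found in prostate, and OR1D2, described in sperm, had none. Neither had OR1A1 and OR1A2, OR5A1, which detects the violet odorant beta-ionone, OR6A2, OR5P3, OR8K3, OR10H1 and OR51L1. Class I lacked values for 12 of 36 probes (33.3%) and class II for 97 of 234 (41.5%). On chromosome 11, which holds the largest share of the family, 51 of 122 receptor probes had none (41.8%). On chromosome 1 it was 18 of 40 (45%), against 40.4% over the family. Of the 161 members, 152 had a value at 3 h, 130 at 6 h and 121 at both times. The remaining members had a value at 3 h in 31 cases and at 6 h in 9.

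At 3 h the receptors' log ratios lay from −1.29 to 1.48, with quartiles of −0.38 and 0.04. Their median was −0.17, against 0.02 for all named genes, and 104 of 152 (68.4%) were below 0, against a background of 47.5%. Past 1.5-fold, 18 receptors were negative (11.8%) and 7 positive (4.61%), against backgrounds of 4.49% and 4.88%. Past 1 unit, which is 2-fold in log2, 6 receptors (3.95%) were counted, against a background of 1.61%. The negative side thus held most of the excess. Within the H300 names the receptors' median was −0.17, against −0.01 for 3949 other genes on such probes.

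At 6 h the values lay from −0.99 to 0.98, with a median of −0.22, against 0.02 for all named genes. Below 0 were 92 of 130 receptors (70.8%), against a background of 47.3%. None reached 1 unit, against a background of 1.43%, although OR2J3 and OR56A3 at −0.99 and OR4A16 at 0.98 came within 0.02 of it. Past 1.5-fold, 22 receptors were negative (16.9%) and 2 positive (1.54%), where all genes had 4.24% and 5.63%. With each array centred on the median of the named genes, OR2J3 and OR56A3 had −1.01 and the count past 1 unit became 2.

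**Figure D2:**
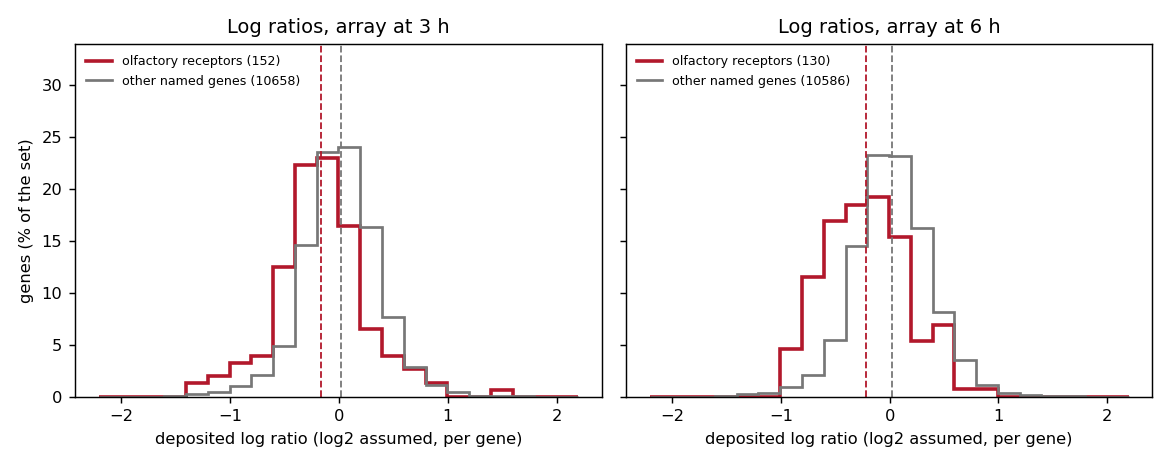
Log ratios per gene (x axis, log2 assumed, in steps of 0.2) as a share of the set (y axis, percent) at 3 h and at 6 h, for olfactory receptors and for other named genes. Dashed lines are the medians, −0.17 at 3 h and −0.22 at 6 h for the receptors and 0.02 for the other genes at each time.

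The outermost receptors at 3 h were all of class II, which held 131 of the 152 receptors with a value at 3 h. OR10J5, which responds to the floral odorant lyral, had the highest value, 1.48 at 3 h, a 2.79-fold difference, and no value at 6 h. It was the 1 member at 1 or more (background 0.657%). Then came OR4M2 at 0.96, with no value at 6 h, and OR9G1 at 0.92, which had 0.14 at 6 h. OR2J2 had 0.72 and OR10AG1 0.65 without a 6 h value, and OR2S2 had 0.68 at 3 h and 0.05 at 6 h. Of these 6 highest receptors 4 were thus measured on the 3 h array alone.

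At −1 or less were 5 receptors at 3 h (background 0.953%). OR4X2 had −1.29 at 3 h and −0.84 at 6 h and was the 1 member among the 6 lowest at both times. OR10G8 had −1.21 at 3 h and −0.05 at 6 h, and OR13C3 had −1.02 and −0.47. OR4D5 had −1.08 at 3 h and 0.47 at 6 h. OR11G2 had −1.19, and OR2M3, tuned to an onion thiol, had −0.91, and both lacked a value at 6 h. These negative values therefore came with 6 h values that ranged from well below to above 0, where there was one.

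At 6 h, OR4A16 was highest at 0.98 and had no value at 3 h. OR6T1 had −0.41 at 3 h and 0.63 at 6 h, and OR8B8 had 0.55 at 6 h alone. OR4M1 had 0.31 at 3 h and 0.51 at 6 h. OR5V1 had −0.72 at 3 h and OR4D11 −0.47, and both reached 0.49 at 6 h. On the low side OR56A3, of class I, had −0.6 at 3 h and −0.99 at 6 h. OR2J3, a receptor for a grass-smelling alcohol, had −0.12 and −0.99. OR2T12 had −0.39 at 3 h and −0.93 at 6 h, OR8S1 0.04 and −0.9, and OR52N5, also of class I, −0.45 and −0.86. OR4X2 at −0.84 completed the 6 lowest. All 6 lowest receptors at 6 h had a value on both arrays.

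**Figure D3:**
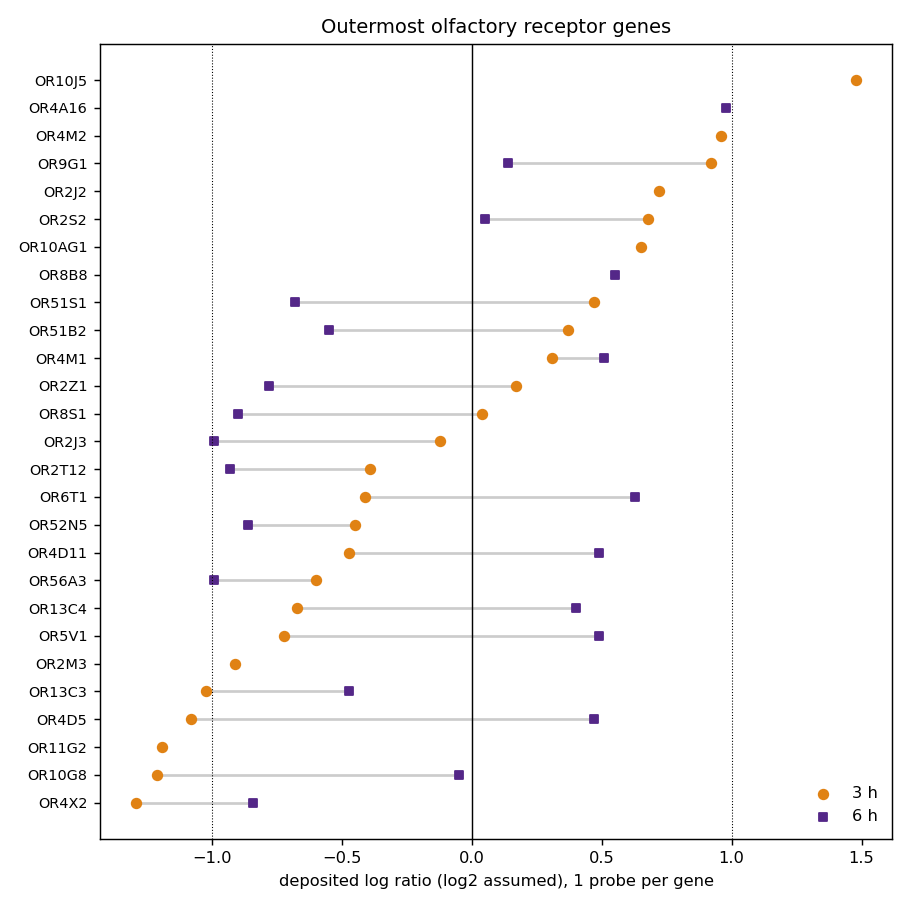
Log ratios (x axis, log2 assumed) at 3 h (circles) and 6 h (squares) of the receptors that were among the 6 highest or 6 lowest at a time, past 1 unit, or among the 4 highest or 4 lowest differences. Grey lines join the values of 1 gene and dotted lines mark −1 and 1, which OR10J5 and 5 negative receptors passed at 3 h.

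When the 3 h log ratio was subtracted from the 6 h one, receptors spread widely around a centre near 0. Over 121 receptors the median was −0.01, equal to that of all named genes, and 61 (50.4%) were below 0, against a background of 51.2%. The SD across receptors was 0.46, against 0.29 across 10348 other genes with both values. Past 1 unit were 6 receptors (4.96%), against a background of 1.2%, and past 1.5-fold were 7 positive and 12 negative (5.79% and 9.92%), against 3.05% and 2.7%. OR4D5 had the highest difference at 1.55, followed by OR5V1 at 1.21, OR10G8 at 1.16, OR13C4 at 1.07 and OR6T1 at 1.04. OR51S1 had the lowest at −1.15, followed by OR2Z1 at −0.95, OR8S1 at −0.94 and OR51B2 at −0.92. OR13C4 had −0.67 at 3 h and 0.4 at 6 h, OR51S1 0.47 and −0.68, OR2Z1 0.17 and −0.78, and OR51B2 0.37 and −0.55. Array and time cannot be told apart in these differences.

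That spread varied among taste and related receptors, GPR receptors, beta defensins and keratin-associated proteins. It was below 0.2 in the broadly used families. The SD of the difference was 0.44 over 11 taste, trace amine and vomeronasal receptors, 0.44 over 34 GPR receptors, 0.70 over 4 beta defensins and 0.27 over 14 keratin-associated proteins. It was 0.18 over 35 ribosomal proteins, 0.11 over 31 proteasome subunits and 0.08 over 29 complex I subunits. The medians did not follow the same order. GPR receptors had −0.2 at 3 h and −0.02 at 6 h, taste and related receptors −0.13 and −0.19, keratin-associated proteins −0.08 and −0.23, and beta defensins −0.13 and −0.37. Ribosomal proteins, with every probe measured, had −0.12 and −0.09, while proteasome subunits had 0.19 and 0.05. The broadly used families also had fewer probes without a value than the other families named here. Among those others, GPR receptors were nearest to the other named probes, lacking both values for 17.5% against 11.3%. The part of missing values in the spread was not tested.

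**Figure D4:**
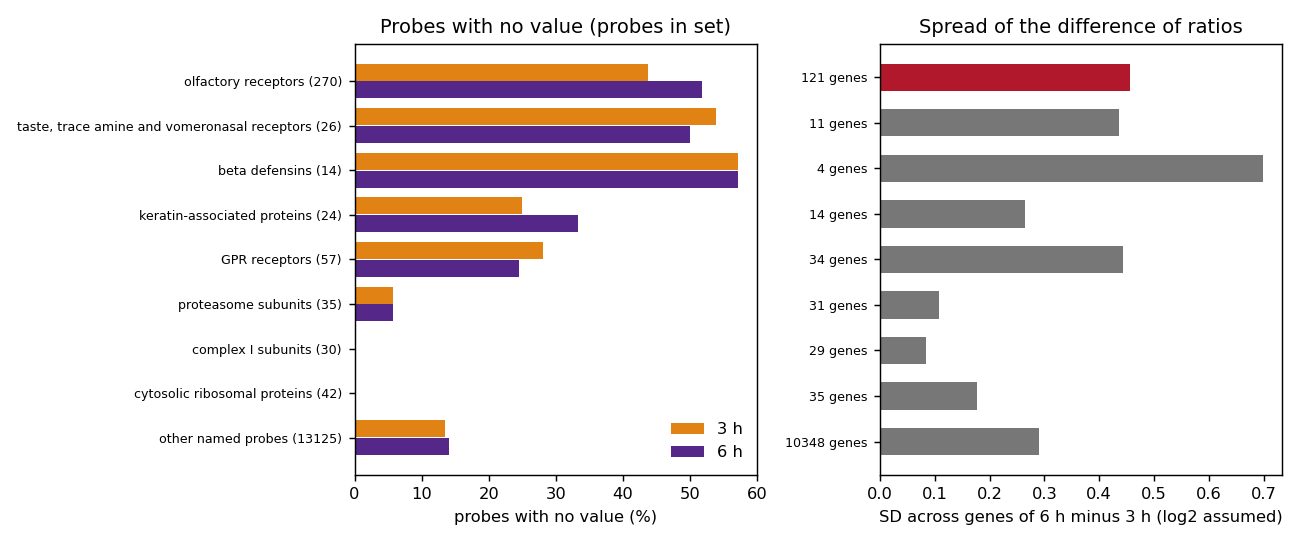
Left, share of probes with no value (x axis, percent) at 3 h and 6 h, with the number of probes in brackets. Right, SD across genes of the difference of log ratios, 6 h minus 3 h (x axis, log2 assumed), for the same sets, 0.46 for 121 olfactory receptors and 0.29 for 10348 other genes.

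Receptors measured on 1 array varied more than those measured on both. At 3 h the SD was 0.59 over the 31 receptors without a 6 h value, against 0.36 over the 121 with both. Other genes gave nearly the same pair, 0.59 over 310 genes and 0.35 over 10348. Past 1.5-fold at 3 h, receptors on 1 array were 16.1% negative and 12.9% positive, close to the 17.1% and 14.8% of other genes on 1 array, and their median was −0.09, against −0.03 in those genes. Those on both arrays had a median of −0.19 at 3 h, with 10.7% negative and 2.48% positive past 1.5-fold. At 6 h the 9 receptors without a 3 h value had a median of 0.01, with 4 below 0, and the 121 on both arrays had −0.22. The negative median was therefore also present, at each time, without the members that had a single value.

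Negative values were more frequent in class I than in class II. The 21 class I receptors at 3 h had a median of −0.34, against −0.14 for 131 of class II. Below 0 were 18 of 21 (85.7%) and 86 of 131 (65.6%), both above the 47.5% of all named genes. At 6 h the medians were −0.57 over 22 class I and −0.17 over 108 class II receptors. Below 0 were 20 of 22 (90.9%) and 72 of 108 (66.7%), both above the 47.3% of all named genes. Past 1.5-fold on the negative side at 6 h were 11 of 22 class I receptors (50%), against 11 of 108 in class II (10.2%), and no class I receptor was past 1.5-fold on the positive side. Family 52 had medians of −0.45 over 9 genes at 3 h and −0.66 over 10 at 6 h. Family 56 had −0.26 over 3 and −0.71 over 4, and family 51 had −0.34 over 9 and −0.43 over 8. The exceptions at 6 h were OR51D1 at 0.13 and OR52A1 at 0.01. Class I genes share sequence and lie in 1 stretch of chromosome 11, so they are not independent of each other, and the difference of the classes was not tested.

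**Figure D5:**
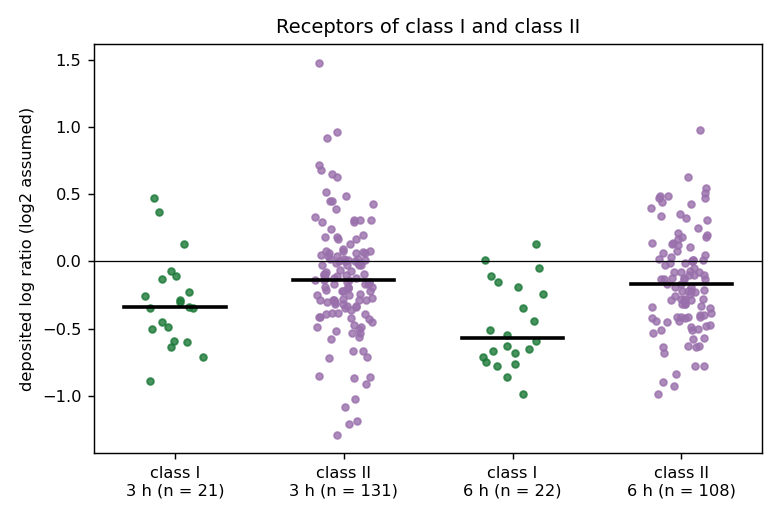
Log ratios (y axis, log2 assumed) of single receptor genes at 3 h and 6 h, class I beside class II, with bars at the medians of −0.34 and −0.14 at 3 h and −0.57 and −0.17 at 6 h. Points are spread sideways for legibility only.

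The larger receptor stretches had a range of medians, which were not tested against each other. Stretches were defined by gaps of at most 500 kb between receptor genes or pseudogenes in RefSeq GRCh38.p14, and those with at least 8 members are given. The class I stretch, from OR55B1P to OR52W1, held 24 members. The stretch from OR4A11P to OR5BP1P, all class II, held 18 members with medians of 0.01 at 3 h and 0.1 at 6 h. Below 0 were 7 of 17 and 6 of 14, near the 47.5% and 47.3% of all named genes. Those shares are also the background for the stretches that follow. The stretch from OR6X1 to OR8Q1P held 12 members with medians of −0.29 and −0.17, of which 10 of 11 and 8 of 11 were below 0. On chromosome 1, the stretch from OR2B11 to OR14I1 had −0.27 at both times, with 11 of 13 and 8 of 8 below 0, and the stretch from OR10T2 to OR10J6P had 0.05 and −0.13 over 8 and 6 genes. On chromosome 9, the 10 members between OR1J2 and OR1K1 had −0.06 and 0.02. On chromosome 14, the stretch from OR11H2 to OR6S1 had −0.11 and −0.25 over 6 genes each.

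Close relatives in 1 subfamily did not have closely similar values. Over 35 subfamilies with several measured members at 3 h, the SD within a subfamily was 0.37, against 0.45 over the same 85 genes. At 6 h it was 0.33 within 27 subfamilies, against 0.36 over the 67 genes. Different probes of 1 gene, over 572 other genes, differed with an SD of 0.31 at 3 h and 0.33 at 6 h. Those probes had values on both arrays, while the subfamilies also held receptors measured on 1 array, so these SDs come from unlike sets. Each receptor had 1 probe, so a difference between relatives cannot be told from a difference between probes. In subfamily 4D, OR4D5, OR4D6, OR4D9 and OR4D11 lay between −1.08 and −0.09 at 3 h and between −0.13 and 0.49 at 6 h. OR13C3, OR13C4 and OR13C5 lay between −1.02 and 0 at 3 h and between −0.47 and 0.4 at 6 h. The 5 measured members of 2T kept between −0.58 and −0.12 at 3 h and between −0.93 and −0.13 at 6 h. Probe sequences were not used here.

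Among 31 receptors listed for a known ligand or a place outside the nose, 13 had a value at 3 h and 10 at 6 h. Below 0 were 11 of 13 and 10 of 10, against 68.4% and 70.8% of all receptors with a value and 47.5% and 47.3% of all named genes. OR5AN1, the musk receptor, had −0.43 at 3 h and −0.64 at 6 h. OR7D4, which detects androstenone, had −0.34 and −0.33. OR51B4 had −0.35 at each time. OR1G1 and OR2W1 are both broadly tuned. OR1G1 had −0.29 at 3 h and −0.51 at 6 h, and OR2W1 −0.39 and −0.28. OR3A1, a helional receptor, had −0.25 and −0.42, OR8D1 −0.29 and −0.17, and OR11H4 −0.3 and −0.4. OR2C1 had −0.49 at 3 h and no value at 6 h. Apart from OR10J5, none of the 13 reached 1 unit.

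Of 39 genes listed for odorant signalling, receptor choice and the olfactory neuron, 30 had a probe, 24 a value at 3 h and 23 at 6 h. At 3 h 18 of 24 were below 0, where all named genes had 47.5%. At 6 h it was 13 of 23, where all named genes had 47.3%, so that the share at 6 h was near the background. The medians were −0.09 and −0.04. None reached 1 unit, which 1.61% and 1.43% of all named genes did. GNAL, the G protein subunit, had 0.22 at 3 h and 0.01 at 6 h, and ADCY3, the cyclase, had −0.12 and −0.08. CNGB1, a channel subunit, had −0.2 and −0.21, and CNGA2 had no value. OMP, the protein that marks mature olfactory neurons, had −0.3 and −0.62, and GNG13, a G protein gamma subunit, −0.32 and −0.34. STOML3, a stomatin-like protein of olfactory cilia, had −0.03 and −0.35. Factors that act on receptor genes differed among themselves. LDB1, a cofactor that bridges enhancers, had −0.83 at 3 h and −0.72 at 6 h, and its partner LHX2 had 0.04 and 0.12. EBF1 had −0.84 at 3 h and no value at 6 h, and EBF2 −0.28 and −0.55. In contrast, EBF3 had 0.14 at 6 h and no value at 3 h, and EMX2 had −0.03 and 0.32. CBX3 and CBX5 encode heterochromatin proteins. CBX3 had 0.37 at 3 h and 0.32 at 6 h, and CBX5 had 0.43 and 0.37. The odorant carrier OBP2A had −0.09 at 3 h and −0.18 at 6 h, and OBP2B had −0.08 and −0.22. LCN1, also listed, had −0.05 at 3 h and 0.13 at 6 h.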

How the data were processed

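Total RNA of 293T cells was labelled and hybridised on 2 two-channel oligonucleotide arrays, per the labels' protocols. The deposited table holds 1 log ratio, read as log2, per probe and array for 24267 probes. Its values have 2 decimals, and the median probe of each array is at 0. The sources used here do not give the background correction, normalization, spot filter, log base or numerator. Probes were named by the platform annotation, and symbols were updated through unique synonyms in RefSeq (GRCh38.p14), which renamed 3 members. RefSeq lists 2 of the 161 members as pseudogenes. Counts, medians and SDs were computed with pandas 2.3.3 and numpy 2.4.6, gene-start windows aligned with Biopython 1.88, and the counting was tested on simulated data. Where RefSeq gave a gene several windows, the first was used. With 1 array per time there was no test, no replicate and no depth. Precision is limited by the number of arrays.

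The members and lists were chosen with earlier results of these data known. Named receptors were the 6 highest and 6 lowest at each time, the 4 highest and 4 lowest differences, all past 1 unit, and those of the ligand list. Receptors named as exceptions, in subfamilies or with shared windows (OR51D1, OR52A1, OR4D6, OR4D9, OR13C5 and OR7A5) were chosen after their values were seen. So were the bounds of the chromosome stretches, the motifs, the H300, H200 and opHs split and the subfamilies described. Protein identities of receptors were not used here.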

Additional observations from a re-analysis of the deposited data

Results flagged for a closer look

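For 5 named receptors the log ratio lay on opposite sides of 0 at the 2 times, at least 1 unit apart. The differences of 6 h minus 3 h were 1.55 for OR4D5, 1.21 for OR5V1, 1.07 for OR13C4, 1.04 for OR6T1 and −1.15 for OR51S1. They were not tested, since each time had 1 array. Such receptors were 5 of 121 (4.13%), against 91 of 10469 named genes (0.869%), and the naming rule favours large differences.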

How the results depend on the processing

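No paired analysis was possible because each time had 1 array, and no replicate could be left out. All 161 members had 1 probe, so the median or the outermost probe, and a restriction to genes with 1 probe, gave the same values, as did the annotation's own symbols. The medians at 3 h and 6 h stayed negative under every alternative, between −0.19 and −0.12 at 3 h and between −0.24 and −0.17 at 6 h. The count past 1 unit at 6 h was 0 as reported, 2 with centring on named genes and 1 with pseudogenes ending in P added. A size of 1.5-fold gave 25 receptors at 3 h, 24 at 6 h and 19 for the difference. The shares by sign at that size, with those of all named genes, are given above. If the values were natural logarithms, 2-fold would count 17, 13 and 16, against 6, 0 and 6 in log2. The share of all named genes at that size was not computed, so the natural-logarithm counts have no background. Leaving out chromosome 11, a setting added after the data were seen, kept 86 receptors at 3 h and 68 at 6 h. Of these, 54 and 46 were negative (62.8% and 67.6%), against 47.5% and 47.3% of all named genes. Past 1 unit were 3 at 3 h (3.49%) and 2 in the difference (3.1%), against 1.61% and 1.2% of all named genes. Without class I, also added later, the median difference had the opposite sign, 0.005 against −0.01, and both are near 0. The cause of these changes was not tested beyond the fewer genes or the other size. The threshold of the count at 6 h rests on values of 2 decimals, and missing values limit the family to 161 of 270 genes with a probe.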

Other observations

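Of the receptor pseudogenes ending in P, 5 had a probe and 3 a value. OR10R3P had −1.07 at 6 h and no value at 3 h, OR7E5P had −0.29 at 3 h and −0.04 at 6 h, and OR4H12P had −0.05 and 0.04. BPTF, a subunit of the chromatin remodeller NURF, had 0.46 at 3 h and 0.51 at 6 h. GAP43, of growing axons, had −0.39 at 3 h and 0.41 at 6 h.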
